A study of Mus musculus with 12 samples.

Results

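The collagen genes are described here as a family of 44 rows, every row of the 16411 in the deposited count table whose symbol is Col, a number, a, and a number. They were measured by RNA-seq in 6 HER2-driven tumors of the mammary gland and in benign tissue of the same gland (6 samples), and the question was which collagens differed between tumor and benign tissue. All 12 samples came from female mice labelled MMTV-Neu-NDL-YD5 transgenic, heterozygous and on an FVB background, in which the mouse mammary tumor virus promoter drives an activated form of HER2 (Neu) in the mammary epithelium. As benign tissue the study took mammary tissue that showed no tumor, from the region most distant from the tumor, in animals with the same transgene, so neither group is wild type. No mouse gave both a tumor and a benign library. The labels name no age or treatment, and no library was described as a pool of animals.

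Collagens are secreted proteins in which chains wind into a triple helix, and the chain genes differ in the structures they build. Fibrillar collagens (types I, II, III, V, XI, XXIV and XXVII) assemble into the fibers of connective tissue, where types V and XI are minor chains that regulate fiber diameter, and fibril-associated collagens such as type IX decorate the surface of fibers. Type IV forms the sheet of basement membranes, type VI forms beaded microfibrils around cells, type VII anchors the epithelium to the stroma beneath it, and types XIII, XVII, XXIII and XXV span the plasma membrane. In mammary tissue types I and III are known mainly as products of stromal fibroblasts, whereas types II, IX and XI are best known from cartilage.

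Total counts were between 5240853 and 8588567 per sample, with similar ranges in both groups. Counts were scaled with the TMM method to the counts of each library in the genes that passed the filter below. They are given as CPM, with group means ± SD over 6 samples. Tumors were compared with benign tissue by the quasi-likelihood test of edgeR across 13191 genes that passed a filter on low counts, and a gene was called at a Benjamini-Hochberg adjusted p-value under 0.1. The two-sided exact permutation test over all regroupings of 6 against 6 samples cannot give a p-value below 0.00216. The benign samples differed in tissue content, since 10 skeletal muscle genes accounted for 4.96%, 2.99% and 7.25% of all reads counted in samples 3, 4 and 6 of that group, and from 0.00164% to 0.0383% in benign samples 1, 2 and 5. The epithelial marker Epcam was present in every sample (benign tissue, 132 to 399 CPM, and tumors, 964 to 1351 CPM), and of 10 luminal markers 6 were higher in tumors, 2 (Krt19 and Foxa1) were lower and 2 were not called. The median log2 fold change of this list was 0.998, its summed level was 1030 to 2800 CPM in benign tissue as against 3018 to 4528 CPM in tumors, and its part in the collagens that rose was not tested.

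Of the 44 collagen genes 34 passed the filter, of which 12 were called higher in tumors, 19 were called lower, and 3 were not called. Across all genes tested 63.0% were called, 28.2% as higher and 34.8% as lower, against 35.3% and 55.9% of the collagens tested. The tumors lay above every benign sample for 9 collagens (14.7% of all genes) and below every benign sample for 18 (21.2% of all genes). The median log2 fold change of the 34 collagens was -2.11, beside -0.06 over all genes tested. A gene expressed in only 1 group can pass the filter through that group alone, so these counts describe the collagens with sufficient reads and not all 44. The classes differed in their balance. In the fibrillar class 2 of 9 genes were higher and 6 lower, in the basement membrane class 3 of 7 were higher and 4 lower, all 4 type VI genes tested were lower, and of 4 transmembrane collagens 1 was higher and 3 were lower. In the fibril-associated class 5 of 7 were higher and 1 was lower. In bulk tissue, fewer cells of a type and less RNA per cell cannot be told apart, which applies to every difference below.

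**Figure D1:**
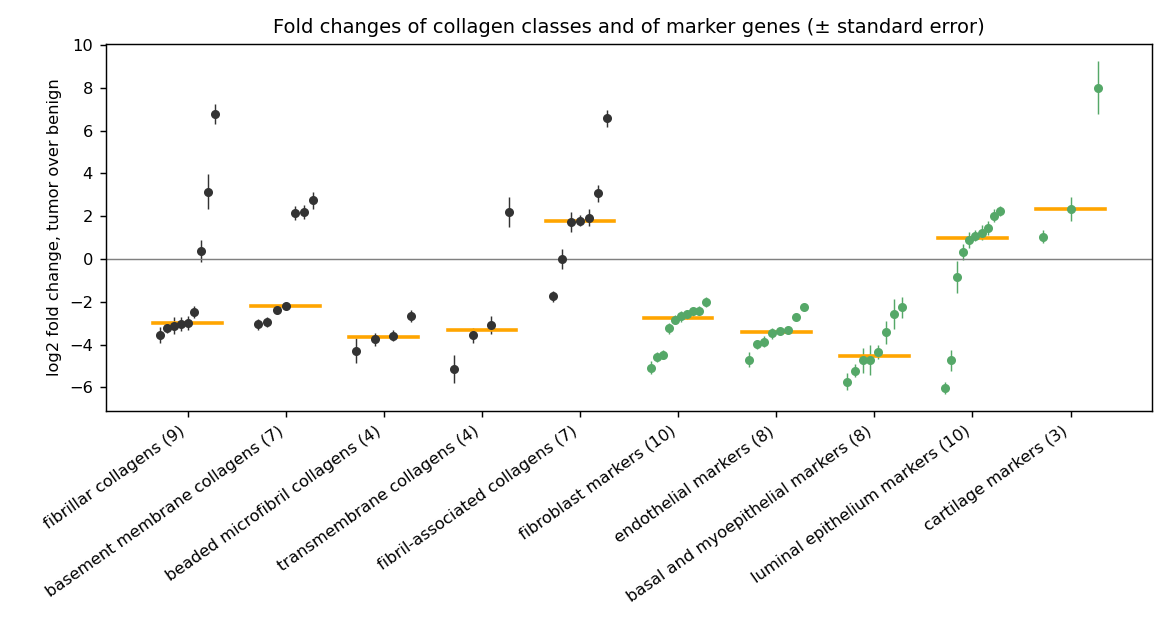
Log2 fold change of tumor over benign tissue for each gene tested, by collagen class (black) and by marker list (green), with bars of ± 1 standard error, orange lines at the median of each list and the number of genes in brackets. The fibril-associated class has a median of 1.79, and the fibrillar, basement membrane, beaded microfibril and transmembrane medians lie between -3.67 and -2.21.

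Among the collagens tested, Col11a1 and Col9a1 had the largest rises, and the other chains of types XI and IX (Col11a2, Col9a2 and Col9a3) rose too. The genes of these types lie on 5 chromosomes in the GENCODE annotation of GRCm38 (mm10): Col11a1 at chr3:114030540-114220718, Col11a2 at chr17:34039437-34066685, Col9a1 at chr1:24177610-24252684, Col9a2 at chr4:121039385-121055322 and Col9a3 at chr2:180597790-180622189. The 250 bases before a RefSeq start of 3 of them are printed with those of Col3a1 (chr1:45311538-45349706). They were chosen because Col11a1 and Col9a1 rose the most, Col11a2 encodes the partner chain of Col11a1, and Col3a1 fell from the highest level per kb of exon in benign tissue. Capitals mark matches to 5 motifs on either strand. The windows are chr1:24177360-24177609 for Col9a1, chr3:114030290-114030539 for Col11a1, chr17:34038888-34039137 for Col11a2 and chr1:45311288-45311537 for Col3a1, all on the plus strand.
Col9a1: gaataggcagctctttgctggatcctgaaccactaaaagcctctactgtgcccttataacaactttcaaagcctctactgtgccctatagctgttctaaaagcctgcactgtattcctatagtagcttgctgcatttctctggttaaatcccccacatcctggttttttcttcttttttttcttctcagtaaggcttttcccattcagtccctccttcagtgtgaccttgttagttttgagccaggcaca
Col11a1: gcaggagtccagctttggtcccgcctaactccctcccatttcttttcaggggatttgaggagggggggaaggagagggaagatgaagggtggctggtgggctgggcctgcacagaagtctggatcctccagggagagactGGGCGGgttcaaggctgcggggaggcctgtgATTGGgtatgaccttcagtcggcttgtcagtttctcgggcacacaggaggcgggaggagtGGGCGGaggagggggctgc
Col11a2: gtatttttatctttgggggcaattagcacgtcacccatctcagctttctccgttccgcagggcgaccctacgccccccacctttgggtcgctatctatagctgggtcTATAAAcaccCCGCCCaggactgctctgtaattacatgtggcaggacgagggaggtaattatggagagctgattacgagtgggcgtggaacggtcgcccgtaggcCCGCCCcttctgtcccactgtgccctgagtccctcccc
Col3a1: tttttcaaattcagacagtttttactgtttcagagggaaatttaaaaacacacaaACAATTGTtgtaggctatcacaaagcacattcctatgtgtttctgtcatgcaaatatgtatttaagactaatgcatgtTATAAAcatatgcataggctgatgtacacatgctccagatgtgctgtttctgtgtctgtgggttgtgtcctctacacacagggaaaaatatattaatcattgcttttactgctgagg
Col9a1 had 2 RefSeq windows, and the printed one, with the lower coordinate, held none of the 5 motifs. The other Col9a1 window is not shown. The Col11a1 window held 2 GC boxes (GGGCGG) and 1 CCAAT box, the Col11a2 window held 2 GC boxes and 1 TATA box (TATAAA), and the Col3a1 window held 1 TATA box and 2 matches to the SOX core (ACAAT), 1 on each strand, that share 2 letters. A RefSeq window was matched to 35 of the 44 collagen genes. Among 11 windows of 10 collagens called higher, 0 held the SOX core, 7 a GC box, 4 a CCAAT box, 3 the PEA3 ETS site (AGGAAG) and 1 a TATA box. Among 18 windows of 16 collagens called lower, 1 held the SOX core, 10 a GC box, 7 a CCAAT box, 6 the PEA3 ETS site and 3 a TATA box. Over all 32851 windows of the same length these shares were 27.7% for the SOX core, 32.7% for the GC box, 33.8% for the CCAAT box, 29.5% for the PEA3 ETS site and 12.4% for the TATA box. These matches describe the letters in the windows and no binding was measured.

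Col11a1, which encodes the α1 chain of type XI collagen, had between 3.21 and 22.1 CPM in benign tissue (median 9.46) and between 722 and 1685 CPM in tumors (median 1067). The lowest tumor was therefore far above the highest benign sample. The mean rose from 10.3 ± 6.65 to 1140 ± 359 CPM, a ratio of means of 111 and a log2 fold change of 6.78 (standard error 0.48, adjusted p = 1.2e-07 by edgeR). Col9a1, a chain of the type IX collagen that coats fibers, had between 4.97 and 23.8 CPM in benign tissue (median 10.9) and between 962 and 1659 CPM in tumors (median 1205). Its groups were separated just as clearly, with a log2 fold change of 6.58 (standard error 0.41, adjusted p = 4.4e-08) and a ratio of means of 96.1. The order of the tumors was not shared between these genes, as tumor 5 was highest and tumor 6 lowest for Col11a1, whereas tumor 4 was highest and tumor 2 lowest for Col9a1.

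The other chains of type IX also rose, but by less. Col9a2 had between 14.0 and 110 CPM in benign tissue (median 52.6) and between 369 and 556 CPM in tumors (median 450), a log2 fold change of 3.07 (standard error 0.41, adjusted p = 3.3e-05). Col9a3 had between 10.8 and 72.9 CPM in benign tissue (median 39.8) and between 86.2 and 219 CPM in tumors (median 138), a log2 fold change of 1.93 (standard error 0.39, adjusted p = 0.00097). For both genes every tumor lay above every benign sample, and the benign values were lowest in sample 6 and highest in sample 2.

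Col11a2, the α2 chain of type XI, had between 3.70 and 16.9 CPM in benign tissue (median 4.36) and between 15.4 and 262 CPM in tumors (median 22.4). Tumor 5 had 262 CPM while the other tumors had 15.4 to 32.9 CPM, so the mean of 61.8 ± 98.1 CPM rested largely on that sample, and the groups overlapped through benign sample 1. Its log2 fold change came to 3.15 (standard error 0.81, adjusted p = 0.0050), and it was 1.70 without tumor 5, still called. The exact permutation p was 0.0065, and DESeq2 gave the gene no adjusted p-value. Tumor 5 also had the highest Comp level, 2142 CPM against 50.6 to 120 CPM in the other tumors. Comp encodes a matrix protein of cartilage and tendon that binds collagen fibers.

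**Figure D2:**
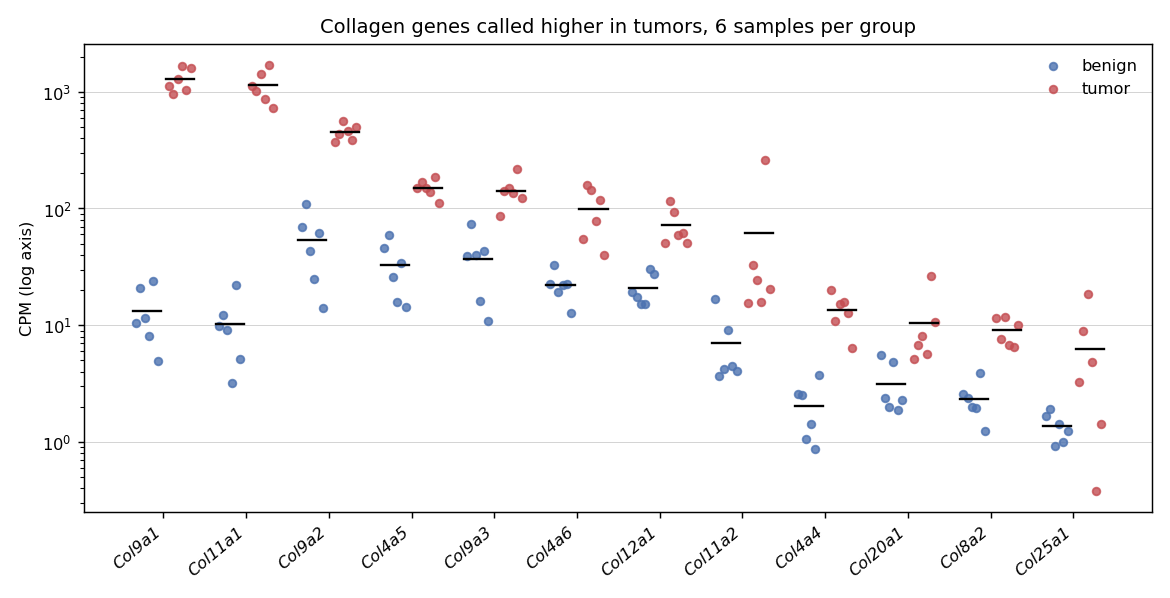
CPM on a log axis of the 12 collagen genes called higher in tumors, with a point for each of 6 benign (blue) and 6 tumor (red) samples and a black line at each mean. Col9a1 and Col11a1 sit between 3.21 and 23.8 CPM in benign tissue and between 722 and 1685 CPM in tumors, whereas single tumors carry the mean of Col11a2 (262 CPM in tumor 5).

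Among the basement membrane collagens, the type IV chains Col4a4, Col4a5 and Col4a6 rose, Col4a3 did not pass the filter, and Col4a1 and Col4a2 fell. Col4a5 and Col4a6, which neighbor one another on chromosome X in opposite directions with 1308 bases between them, encode chains of the α5/α6 network. Col4a5 had between 14.4 and 59.7 CPM in benign tissue (median 30.1) and between 111 and 185 CPM in tumors (median 150), with a log2 fold change of 2.20 (standard error 0.32, adjusted p = 7.0e-05). Col4a6 had between 12.6 and 33.1 CPM in benign tissue (median 22.3) and between 40.2 and 158 CPM in tumors (median 97.8), with a log2 fold change of 2.16 (standard error 0.34, adjusted p = 0.00013). Neither gene had any tumor within the benign range.

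Col4a4, a chain of the α3/α4/α5 network known from kidney glomeruli, had few reads. It ranged between 0.874 and 3.73 CPM in benign tissue (median 1.97) and between 6.37 and 19.9 CPM in tumors (median 14.0), a log2 fold change of 2.74 (standard error 0.38, adjusted p = 5.2e-05), with no overlap. Its partner Col4a3, which starts 71 bases away on the opposite strand of chromosome 1, did not pass the filter and had at most 7 counts in any sample (means of 0.574 ± 0.42 in benign tissue against 0.383 ± 0.24 CPM in tumors, exact permutation p = 0.439).

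By contrast Col4a1 and Col4a2, the major chains found in nearly all basement membranes, fell. Col4a1 had between 898 and 1680 CPM in benign tissue (median 1138) and between 192 and 310 CPM in tumors (median 265), a log2 fold change of -2.21 (standard error 0.19, adjusted p = 7.7e-07). Col4a2 had between 695 and 1239 CPM in benign tissue (median 799) and between 136 and 210 CPM in tumors (median 172), a log2 fold change of -2.38 (standard error 0.19, adjusted p = 4.4e-07). These genes start head to head on chromosome 8 and share 22 bases in the annotation. In each sample, the log2 CPM of Col4a1 exceeded that of Col4a5 by between 4.77 and 6.13 in benign tissue but by only 0.479 to 1.09 in tumors, and this difference between the chains changed by -4.55 (exact permutation test, adjusted p = 0.0048 over 11 chain pairs).

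The basement membrane collagens with a cleavable C-terminal domain fell too. Col15a1 had between 279 and 773 CPM in benign tissue (median 450) and between 46.4 and 71.4 CPM in tumors (median 55.9), a log2 fold change of -3.06 (standard error 0.25, adjusted p = 4.7e-07). Col18a1, the precursor of endostatin, had between 180 and 409 CPM in benign tissue (median 263) and between 26.9 and 48.4 CPM in tumors (median 34.6), a log2 fold change of -2.94 (standard error 0.22, adjusted p = 1.9e-07). The groups did not overlap for either gene. Between groups, endothelial markers went in the same direction as Col4a1, Col4a2, Col15a1 and Col18a1. All 8 endothelial markers were lower in tumors, with a median log2 fold change of -3.43, and their summed level was 624 to 1213 CPM in benign tissue as against 84.6 to 103 CPM in tumors. Among benign samples, sample 2 had the largest share of counts in these markers (0.128%) and the highest Col4a1 and Col4a2. Sample 5 (0.0754%) had the highest Col15a1 and Col18a1. The part of the endothelial markers in the fall of these 4 collagens was not tested.

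The major fibrillar collagens fell together. Col3a1, the type III chain of soft connective tissue, had between 1732 and 5525 CPM in benign tissue (median 3137) and between 165 and 457 CPM in tumors (median 269). Col1a1 had between 841 and 3124 CPM in benign tissue (median 1524) and between 137 and 325 CPM in tumors (median 182), and Col1a2, its partner in type I collagen, had between 878 and 2435 CPM (median 1332) and between 129 and 290 CPM (median 181). The highest tumor was below the lowest benign sample in each case. The log2 fold changes were -3.57 for Col3a1 (standard error 0.36, adjusted p = 3.1e-06), -3.12 for Col1a1 (standard error 0.39, adjusted p = 2.1e-05) and -2.98 for Col1a2 (standard error 0.32, adjusted p = 4.5e-06).

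Type V collagen, which initiates fibers of types I and III, followed the same direction. Col5a1 had between 240 and 463 CPM in benign tissue (median 276) and between 15.8 and 49.6 CPM in tumors (median 35.1), a log2 fold change of -3.21 (standard error 0.27, adjusted p = 5.5e-07). Col5a2 had between 197 and 610 CPM in benign tissue (median 291) and between 40.4 and 82.9 CPM in tumors (median 60.4), a log2 fold change of -2.47 (standard error 0.27, adjusted p = 6.3e-06). Col5a3 had between 117 and 292 CPM in benign tissue (median 129) and between 10.4 and 28.8 CPM in tumors (median 19.6), a log2 fold change of -3.04 (standard error 0.31, adjusted p = 3.1e-06). No tumor reached the benign range for any type V chain, so the minor fibrillar chains split by type, with type V lower and type XI higher.

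Type VI collagen fell in all 4 of its genes tested. Col6a1 had between 365 and 886 CPM in benign tissue (median 486) and between 31.3 and 66.0 CPM in tumors (median 42.6), a log2 fold change of -3.58 (standard error 0.27, adjusted p = 2.1e-07). Col6a2 had between 397 and 1007 CPM in benign tissue (median 557) and between 27.9 and 62.7 CPM in tumors (median 44.8), a log2 fold change of -3.76 (standard error 0.29, adjusted p = 2.4e-07). Col6a3, the longest chain of the microfibril, had between 288 and 502 CPM in benign tissue (median 346) and between 26.9 and 94.4 CPM in tumors (median 61.9), a log2 fold change of -2.66 (standard error 0.29, adjusted p = 5.9e-06). The groups did not overlap for these genes. Col6a6 had few reads and went from 4.44 ± 1.89 CPM to 0.201 ± 0.22 CPM (log2 fold change -4.28, standard error 0.57).

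**Figure D3:**
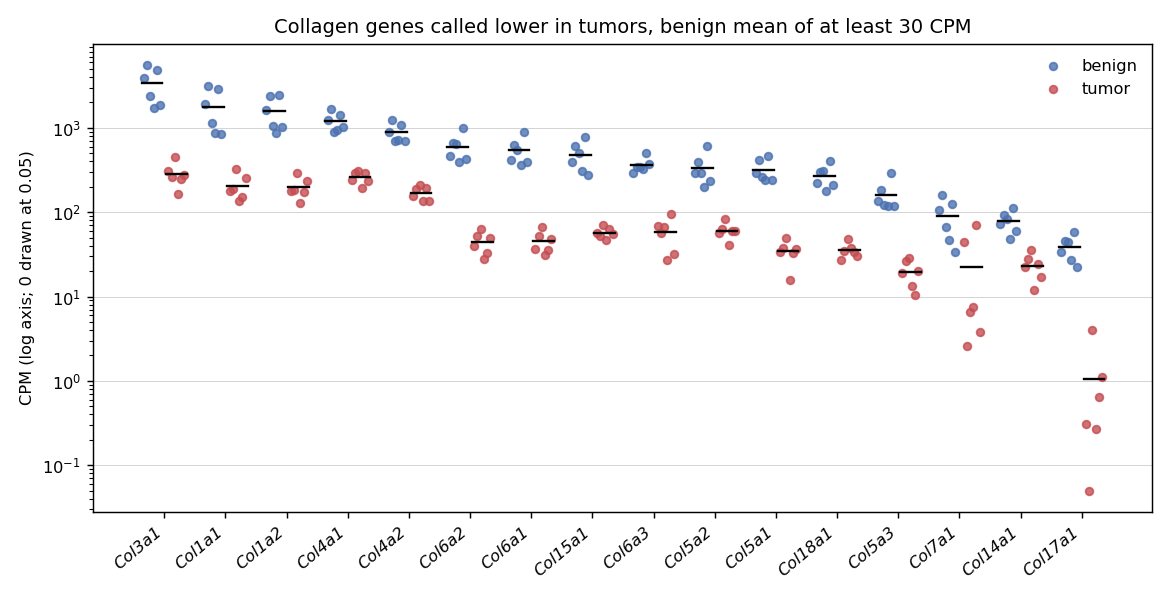
CPM on a log axis of the 16 collagen genes called lower in tumors with a benign mean of at least 30 CPM, with a point for each of 6 benign (blue) and 6 tumor (red) samples and a black line at each mean; the tumor listed at 0 for Col17a1 is drawn at the bottom of the axis. The groups overlap only for Col7a1, where tumors 1 and 5 (43.9 and 69.6 CPM) lie within the benign range.

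Between groups, fibroblast markers went in the same direction as the collagens of types I, III, V and VI. All 10 fibroblast markers were lower in tumors, with log2 fold changes between -5.08 and -2.01 (median -2.76), and their summed level was 1872 to 2683 CPM in benign tissue as against 131 to 221 CPM in tumors. The marker Pdgfra went from 107 ± 14.5 to 19.6 ± 5.27 CPM. Among benign samples, sample 2 had the largest share of unscaled counts in the fibroblast markers (0.255%) and the highest Col1a1 and Col3a1. On the CPM scale used for the collagens, sample 6 had the highest summed fibroblast markers (2683 CPM, 0.214% of counts) and the lowest Col1a1. Sample 5 (0.201% of counts) had the highest Col6a1, Col6a2 and Col6a3. Within benign tissue, the muscle-bearing samples 3, 4 and 6 had 1732 to 2354 CPM of Col3a1 and samples 1, 2 and 5 had 3919 to 5525 CPM. For type VI these sets overlapped, with 365 to 552 and 419 to 886 CPM of Col6a1 and 326 to 373 and 288 to 502 CPM of Col6a3. The median log2 fold change of the 19 collagens called lower was -3.39 against benign samples 1, 2 and 5 alone and -2.55 against benign samples 3, 4 and 6 alone, beside -2.78 and -2.74 for the fibroblast markers. The part of fibroblast content in the lower collagens was not tested.

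Among the transmembrane collagens, Col17a1 had the largest fall of all collagens tested. It lies at chr19:47646344-47692094 and encodes the hemidesmosome protein that attaches basal epithelial cells to the basement membrane. Col17a1 had between 22.2 and 58.1 CPM in benign tissue (median 38.9) and between 0 and 3.97 CPM in tumors (median 0.475), where counts ran from 0 to 33. The tumors lay below every benign sample, and the log2 fold change reached -5.13 (standard error 0.66, adjusted p = 2.6e-05). Without tumor 3, the highest tumor for Col17a1, the log2 fold change was -6.19. Tumor 3 was also highest for 5 of 8 basal and myoepithelial markers, among them Krt5 (14.8 CPM against 0.275 to 3.73 CPM in the other tumors), whereas Krt17 was highest in tumor 5 (14.3 CPM, with 7.70 CPM in tumor 3), Oxtr in tumor 2 and Cnn1 in tumor 6. All 8 basal and myoepithelial markers were lower in tumors, with a median log2 fold change of -4.54 and a summed level of 742 to 1640 CPM in benign tissue as against 33.3 to 112 CPM in tumors, and their part in the fall of Col17a1 was not tested.

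The other transmembrane collagens had few reads. Col13a1 fell from 12.4 ± 6.22 CPM to 1.45 ± 0.60 CPM (-3.08 on the log2 scale, standard error 0.41). Likewise Col23a1 fell from 9.03 ± 1.15 CPM to 0.730 ± 0.39 CPM (-3.58 on the same scale, standard error 0.34), and neither gene had overlapping groups. Col25a1, a neuronal collagen, was called higher, with between 0.923 and 1.91 CPM in benign tissue (median 1.33) and between 0.384 and 18.7 CPM in tumors (median 4.06). Of the tumors 4 lay above all benign samples and 1 lay below them. Its log2 fold change came to 2.19 (standard error 0.70, adjusted p = 0.017), the exact permutation p was 0.104, the log2 fold change without tumor 3 was 1.52, and the call was lost without benign samples 3, 4 and 6 (adjusted p = 0.120).

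Col7a1, the anchoring fibril collagen beneath stratified epithelium, was uneven between tumors. It had between 33.7 and 161 CPM in benign tissue (median 85.9) and between 2.61 and 69.6 CPM in tumors (median 7.02). Of the tumors 4 lay below every benign sample, while tumors 1 and 5 had 43.9 and 69.6 CPM. Over all samples the log2 fold change came to -2.01 (standard error 0.76, adjusted p = 0.038, exact permutation p = 0.0152). It was -2.75 without tumor 5. Without benign samples 1, 2 and 5 it was -1.07 and the call was lost (adjusted p = 0.349).

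Beyond type IX, the fibril-associated and network-forming collagens changed in both directions. Col12a1, found on fibers of dense connective tissue, had between 15.1 and 30.6 CPM in benign tissue (median 18.3) and between 50.1 and 116 CPM in tumors (median 60.8), a log2 fold change of 1.79 (standard error 0.26, adjusted p = 7.5e-05), with no overlap. Col14a1, a close relative with the same location on fibers, fell from 77.9 ± 23.2 CPM to 23.1 ± 8.21 CPM (log2 fold change -1.75, standard error 0.26, adjusted p = 9.6e-05), also with no overlap. Col20a1 had between 1.87 and 5.56 CPM in benign tissue (median 2.35) and between 5.14 and 26.5 CPM in tumors (median 7.40), and 5 of 6 tumors lay above the benign range. Its log2 fold change came to 1.74 (standard error 0.46, adjusted p = 0.0057) and was 1.28 without tumor 5. Col8a2, a chain of the type VIII network of endothelium and cornea, had between 1.24 and 3.87 CPM in benign tissue (median 2.18) and between 6.52 and 11.7 CPM in tumors (median 8.83), a log2 fold change of 1.93 (standard error 0.28, adjusted p = 7.0e-05), with no overlap.

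Not called were Col16a1, Col27a1 and Col8a1. Col16a1, a fibril-associated collagen, averaged 195 ± 80.0 CPM in benign tissue and 195 ± 139 CPM in the tumor group (log2 fold change 0.0050, standard error 0.47, adjusted p = 0.99). The tumors spread widely, with 51.8, 80.4 and 100 CPM in tumors 1, 5 and 6 and 247, 293 and 399 CPM in tumors 4, 2 and 3. Col27a1, a fibrillar collagen of developing cartilage, had 39.8 ± 7.45 and 51.1 ± 49.0 CPM, with 144 CPM in tumor 5 and 6.38 CPM in tumor 1 (log2 fold change 0.36, standard error 0.51, adjusted p = 0.57). Col8a1 had 20.8 ± 6.41 and 24.5 ± 5.92 CPM (log2 fold change 0.24, standard error 0.23, adjusted p = 0.41).

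The 10 collagens below the filter were compared by exact permutation alone, over few reads. Col10a1, the collagen of hypertrophic cartilage, had 0 to 2 counts in benign samples and 5 to 28 in tumors (0.079 ± 0.14 and 2.33 ± 1.08 CPM, exact permutation p = 0.00216). Col2a1, the main collagen of cartilage, had 1 to 4 counts in benign samples, 379 in tumor 4 and 1 to 22 in the other tumors, and 4 tumors lay above the benign range (exact permutation p = 0.0195). Col9a1 and Col11a1 were above every benign sample in all 6 tumors, including those with 1 to 22 counts of Col2a1. Col9a1 was highest in tumor 4 (1659 CPM). Types IX and XI accompany type II in cartilage, and the part of Col2a1 in their rise was not tested. In tumor 4, which had the most Col2a1, the aggrecan gene Acan (6.21 CPM) and the link protein gene Hapln1 (10.9 CPM) were also at their highest. Both genes were below the filter. The summed level of the cartilage markers listed below was lowest in tumor 4 (179 CPM, with 198 to 2223 CPM in the other tumors). Col24a1, Col6a5 and Col6a4 had more reads in benign tissue (2.40 ± 1.44, 1.85 ± 0.50 and 1.58 ± 1.56 CPM) than in tumors (0.037 ± 0.090, 0.083 ± 0.065 and 0.020 ± 0.049 CPM), with an exact permutation p of 0.00216 for each. Col26a1 went from 2.07 ± 1.79 to 0.149 ± 0.37 CPM (exact permutation p = 0.0173). Col22a1, a collagen of the junction between muscle and tendon, had 22 and 40 counts in benign samples 3 and 6, which hold muscle transcripts, and at most 9 counts elsewhere (exact permutation p = 0.288). Col28a1 had 0.645 ± 0.35 and 1.01 ± 0.48 CPM (exact permutation p = 0.149), and Col19a1 had 0.131 ± 0.13 CPM in benign tissue and was at 0 counts in all 6 tumors (p = 0.0606 in the same test).

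The makeup of the collagen transcripts differed accordingly, given here as shares of counts, which are not corrected for gene length, without a test. Collagens took between 0.649% and 1.95% of all counts in benign tissue and between 0.479% and 0.637% in tumors. Types I and III made up 45.0% to 59.6% of the collagen counts in benign tissue but 8.87% to 16.5% in tumors. Types IX and XI made up 0.480% to 1.18% in benign tissue and 52.4% to 64.8% in tumors. Type VI went from 12.6% ± 2.96 to 2.80% ± 0.55 of the collagen counts.

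**Figure D4:**
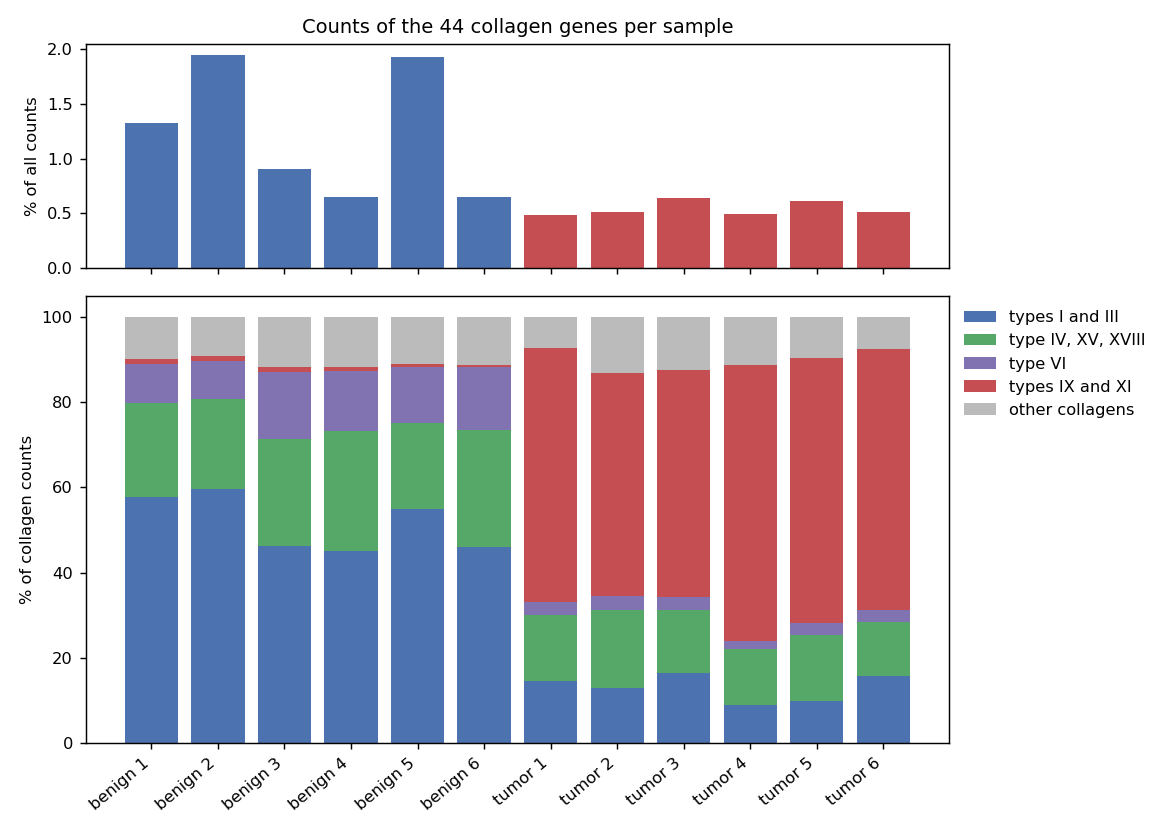
Share of all counts taken by the 44 collagen genes (upper bars, in percent) and share of the collagen counts taken by each group of types (lower stacked bars, in percent) in each of the 12 samples. Types I and III (lower blue segments) fill 45.0% to 59.6% of the benign bars, and types IX and XI (red segments) fill 52.4% to 64.8% of the tumor bars.

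Levels were compared between genes as CPM per kb of exon. On this scale the highest collagens in benign tissue were Col3a1 (344 ± 165 CPM per kb), Col1a1 (273 ± 154) and Col4a1 (161 ± 41.1), and Col9a1, Col9a2 and Col11a1 ranked 25, 15 and 29 of 44. In tumors the highest were Col9a1 (252 ± 58.7 CPM per kb), Col9a2 (146 ± 22.9) and Col11a1 (89.5 ± 28.2), ahead of Col9a3 (37.0 ± 11.3), Col4a1 (34.8 ± 5.91), Col1a1 (31.3 ± 10.9) and Col3a1 (29.1 ± 9.84). The levels of Col9a3, Col4a1, Col1a1 and Col3a1 lay within 1 SD of one another. Col16a1 held a similar level per kb in both groups (28.8 ± 11.8 and 28.9 ± 20.6) but ranked 13 in benign tissue and 8 in tumors. With the length of the longest transcript in place of all exons the first 3 in tumors were again Col9a1, Col9a2 and Col11a1, and Col3a1 (51.3 ± 17.4 CPM per kb) followed them.

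Whether related chains moved together was examined as the difference in log2 CPM between both genes in each sample, for 11 of 12 chain pairs. Of these, 9 differed between tumors and benign tissue (exact permutation tests, adjusted p under 0.05). The share among other pairs of genes was not measured, and 63.0% of all genes tested were called one by one. The 9 include Col1a1 with Col3a1 and Col4a1 with Col4a5, which join chains of different types or networks. The pair Col4a1 and Col4a5 repeats their opposite log2 fold changes (-2.21 and 2.20). No difference was detected between the type I chains over all samples, with Col1a1 minus Col1a2 at 0.11 ± 0.23 in benign tissue and 0.04 ± 0.13 in tumors (difference -0.08, exact permutation p = 0.476), but without benign samples 3, 4 and 6 the difference was -0.25 (adjusted p = 0.033 by exact permutation). Col4a5 minus Col4a6 did not pass (difference 0.32, exact permutation p = 0.342, adjusted p = 0.376). Some differences that passed were small, such as 0.17 for Col4a1 minus Col4a2 and 0.18 for Col6a1 minus Col6a2 (both adjusted p = 0.0060 by the same test). Others were wide. Col11a1 minus Col11a2 went from 0.51 ± 1.41 to 5.08 ± 1.26, Col9a2 minus Col9a3 from 0.50 ± 0.24 to 1.70 ± 0.47, Col5a1 minus Col5a2 from -0.03 ± 0.24 to -0.86 ± 0.24 and Col8a1 minus Col8a2 from 3.01 ± 0.49 to 1.42 ± 0.42, none with overlap between groups and each with an adjusted p of 0.0048. Col1a1 minus Col3a1 rose by 0.50 (adjusted p = 0.0060 by exact permutation), and did not pass without benign samples 3, 4 and 6 (adjusted p = 0.058). Col6a1 minus Col6a3 changed by -0.79 (adjusted p = 0.034 by exact permutation), but did not pass in 7 of the 12 analyses that each left out 1 sample.

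**Figure D5:**
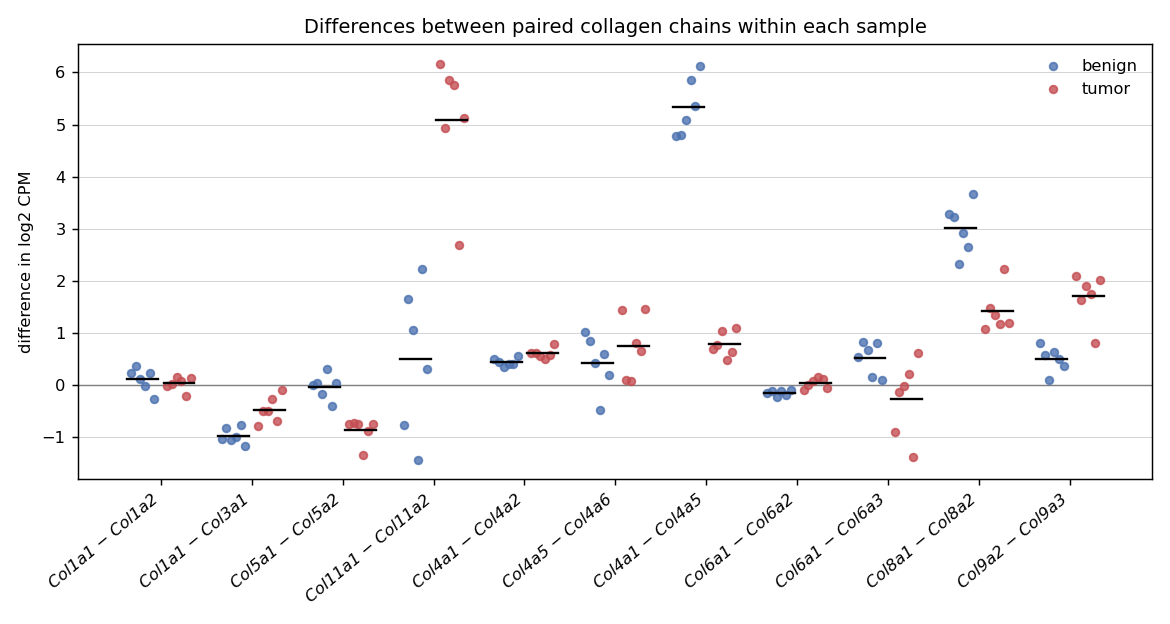
Difference in log2 CPM between both genes of 11 chain pairs in each of 6 benign (blue) and 6 tumor (red) samples, with black lines at the means. Col1a1 minus Col1a2 lies close to 0 in both groups, whereas Col4a1 minus Col4a5 drops from 4.77 to 6.13 in benign tissue to 0.479 to 1.09 in tumors.

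Some collagen genes neighbor one another on a chromosome. Col3a1 and Col5a2, 24.6 kb apart on chromosome 1, both fell, and Col6a1, Col6a2 and Col18a1 on chromosome 10 all fell. Col9a3 and Col20a1, 364 kb apart on chromosome 2, both rose. Col19a1, whose annotated end lies 9205 bases from that of Col9a1 on the opposite strand, had 0 to 2 counts in benign tissue and none in tumors, and was not tested.

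Enzymes and chaperones that modify and fold collagen chains moved in both directions. Beside 28.2% higher and 34.8% lower over all genes tested (median log2 fold change -0.06), 7 of these 20 genes were higher and 11 lower, with a median of -0.48. The largest rises were those of the lysyl hydroxylase Plod2 (24.3 ± 6.84 to 77.5 ± 18.5 CPM, log2 fold change 1.67), the prolyl 3-hydroxylase P3h2 (1.31) and the lysyl hydroxylase Plod1 (0.63). The largest falls were those of the prolyl 4-hydroxylase subunit P4ha2 (44.6 ± 16.3 to 6.47 ± 3.77 CPM, log2 fold change -2.78), the collagen galactosyltransferase Colgalt2 (-2.59) and the ion channel Tmem38b (-2.26). Serpinh1, the collagen chaperone HSP47, fell from 558 ± 162 to 276 ± 49.4 CPM (log2 fold change -1.02), which is less than the fall of the type I and III chains by value. Only 4 of these genes were higher without benign sample 4 or without benign samples 3, 4 and 6.

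Genes for the processing and crosslinking of secreted collagen were mostly lower. Of 12 tested 2 were higher and 9 lower (28.2% and 34.8% over all genes tested), with a median log2 fold change of -1.86. The procollagen C-proteinase enhancers Pcolce2 (-4.32) and Pcolce (-3.22) and the lysyl oxidase family member Loxl1 (-3.19) fell the most on the log2 scale. The procollagen N-proteinase Adamts3 rose from 2.59 ± 1.46 to 31.5 ± 16.0 CPM (log2 fold change 3.57), and Loxl3 rose by 1.37 on the same scale. For both of them every tumor lay above every benign sample. Among 9 collagen receptors tested 2 were higher and 6 lower (28.2% and 34.8% over all genes tested), with a median of -1.46. Ddr1, the discoidin domain receptor of epithelial cells, rose from 103 ± 19.8 to 207 ± 22.7 CPM (log2 fold change 0.998), and the integrin β1 chain gene Itgb1 rose by 0.38 on the log2 scale. Ddr2, the discoidin domain receptor of mesenchymal cells, fell from 70.6 ± 13.1 to 9.01 ± 4.17 CPM (log2 fold change -2.97), and the collagen-binding integrin gene Itga11 (-1.95) and the uptake receptor gene Mrc2 (-1.71) fell as well.

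Cartilage markers were examined beside the rise of types IX and XI, since both are known from that tissue. Of 7 listed markers Matn1 was not among the rows used here, and Acan, Hapln1 and Matn3 did not pass the filter, with means of 1.55 ± 2.36, 1.84 ± 4.45 and 0.129 ± 0.078 CPM in tumors. The 3 markers tested were higher, namely Comp (1.63 ± 0.84 to 426 ± 841 CPM, log2 fold change 8.02), Cnmd (2.07 ± 0.45 to 10.5 ± 8.05 CPM, 2.33) and Sox9, a transcription factor of cartilage and of mammary epithelium (57.9 ± 24.1 to 119 ± 31.3 CPM, 1.04). Comp had 2142 CPM in tumor 5 and 50.6 to 120 CPM in the other tumors, and its log2 fold change without tumor 5 was 5.72 (adjusted p = 2.0e-07 by edgeR). The summed level of the cartilage markers in benign tissue was 25.9 to 86.6 CPM. It was 2223 CPM in tumor 5 and 179 to 259 CPM in the other tumors, lowest in tumor 4. Of 6 Schwann cell markers, which include genes shared with other neural crest derived cells, 2 were higher, 3 were lower and 1 was not called. The median log2 fold change of this list was -0.64. Its higher genes were Sox10 (132 ± 69.3 to 1039 ± 105 CPM) and Cdh19 (4.72 ± 2.08 to 113 ± 15.4 CPM). The summed level of the 6 Schwann cell markers, most of it Sox10 in tumors, was 297 to 451 CPM in benign tissue as against 993 to 1327 CPM in tumors. The part of either list in the rise of the collagens was not tested.

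The spread among samples of a group was similar for both directions in tumors. The median coefficient of variation was 0.330 in tumors and 0.542 in benign tissue for the 12 higher collagens, and 0.338 in tumors and 0.382 in benign tissue for the 19 lower collagens. Tumor 3 was the highest tumor for 19 of the 34 collagens tested, including Col1a1, Col1a2, Col3a1, Col5a1, Col5a2 and Col5a3, and tumor 4 was the lowest for 14, including Col1a1, Col1a2 and Col3a1. In benign tissue sample 5 was highest for 15 and sample 2 for 12, while sample 6 was lowest for 15 and sample 4 for 10.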

How the data were processed

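RNA was measured in 6 tumors and 6 benign samples, grouped by the sample titles. Per the labels and methods, the authors extracted RNA with TRIzol and RNeasy, enriched poly A RNA, made directional libraries, trimmed reads with Trim Galore and quantified transcripts with Salmon on mm10. The deposited values are estimated counts per gene given as whole numbers, unscaled, for 16411 genes with at least 5 counts in all. Versions and the annotation are not given in the sources used here, and transcript-level assignment can split reads between overlapping genes. All columns matched a sample (0 did not). Replicates differed by more than sampling noise (smallest chi-square per degree of freedom 12.5). Since the labels name no animals, p-values measure the spread between these samples.

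Genes were filtered with filterByExpr (minimum count 10, minimum total 15), scaled by TMM and tested over 13191 genes with edgeR 4.0.16 (R 4.3.3, quasi-likelihood, two-sided), at an adjusted p of 0.1, the threshold of the study, which used DESeq2. DESeq2 1.42.0 was an alternative. The common biological coefficient of variation was 0.351. Standard errors are the log2 fold change divided by the root of F. Chain pairs used log2 CPM with 2 added counts. The scripts were tested on simulated data.

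The members and lists were chosen with earlier results of these data known. All collagens were accounted for. Every collagen called higher was given by sample range, as were those called lower with at least 100 CPM in benign tissue or among the 5 largest falls over 10 CPM. From each pathway list the 3 largest rises and falls were named, plus Serpinh1, chosen after its value was seen. Further marker genes, samples and Col7a1 were singled out after their values were seen. Other lists checked were pericyte (4 of 5 lower, 1 higher), white adipocyte (6 of 6 lower) and brown adipocyte markers (3 lower and 1 higher of 4 tested). Of 10 skeletal muscle markers 6 were below the filter, and the 4 tested were lower. Epidermis and hair follicle markers (1 of 2 tested higher) and leukocyte markers (3 of 5 tested lower) were checked as well. Every marker list stands beside 28.2% higher and 34.8% lower over all genes tested.

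Alternatives were DESeq2, upper-quartile scaling, total counts, DESeq2 size factors, filters of at least 1 count in total and of at least 10 in every sample, a fit blocked on replicate number, an adjusted p under 0.05, each sample left out in turn, the benign samples with or without muscle transcripts left out, other added counts and the longest transcript. Coordinates and lengths came from GENCODE on GRCm38, and upstream sequences from RefSeq windows of GRCm38.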

Additional observations from a re-analysis of the deposited data

Results flagged for a closer look

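Among 68 groups of 6 samples, 3 held a sample whose gap to its nearest neighbor exceeded Dixon's critical value, and chance gives about 1 in 20, or 3.4 of 68. Col11a2 had 262 CPM in tumor 5, while the other tumors had 15.4 to 32.9 CPM (gap over range 0.734). Col13a1 had 2.65 CPM in tumor 3, against 1.08 to 1.41 CPM in the others (0.719). Col5a1 had 15.8 CPM in tumor 4, below the 32.6 to 49.6 CPM of the others (0.632).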

How the results depend on the processing

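The counts of 12 higher and 19 lower collagens stayed within 1.5 times of these values in all 22 alternatives, with 12 to 13 higher and 19 lower when 1 sample was left out. With at least 10 counts in every sample they were 9 and 15, and the higher processing and crosslinking genes were 1 in place of 2. The higher folding and modification genes numbered 4 in place of 7 without benign samples 3, 4 and 6 and at an adjusted p under 0.05, and between 4 and 7 when 1 sample was left out. Of 740 log2 fold changes under an alternative 725 kept direction and call. The sign of the uncalled Col16a1 changed, to -0.020 with upper-quartile scaling, -0.35 without benign samples 3, 4 and 6 and -0.27 to 0.26 with 1 sample left out, as did that of Col27a1 (-0.23 to 0.65 with 1 sample left out) and of Col8a1 (-0.046 without benign samples 3, 4 and 6). Col8a1 was called higher without benign samples 1, 2 and 5 (0.72, adjusted p = 0.040 by edgeR). The median of the 34 collagens was -1.60 in that setting. Without benign samples 3, 4 and 6, Col4a5 minus Col4a6 was -0.061, Col1a1 minus Col1a2 differed (-0.25, adjusted p = 0.033 by exact permutation), and Col1a1 minus Col3a1 (adjusted p = 0.058) and Col6a1 minus Col6a3 (adjusted p = 0.065) did not pass. Levels per kb moved by more than 1 SD for 21 of 88 values with the longest transcript. The cause of these changes was not tested.

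Replicate numbers do not pair the samples, which came from different mice, and the correlations of same-numbered deviations were between -0.124 and 0.103. With the replicate number as a block 12 collagens were higher and 19 lower, Col16a1 was at -0.22 and Col27a1 at -0.093. Depth limits the 10 collagens below the filter, where a few reads decide a value.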
